A study of Mus musculus with 12 samples.

Results

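The mouse mitochondrial genome is a small circular DNA that codes for 13 proteins, 2 ribosomal RNAs and 22 transfer RNAs, and its gene symbols begin with mt-. In the deposited files, 16 of 34538 gene rows carried such a symbol. They were all 13 protein-coding genes, both rRNAs and 1 of the 22 tRNAs, mt-Tp. The members were chosen by symbol alone. RNA came from the cochlea (the sound-sensing part of the ear) of wild-type C57BL/6J mice aged 12 months. There were 12 libraries, 4 per group. Control mice drank normal water, coffee mice drank water with 0.1% black coffee and GTE mice drank water with 0.006% green tea extract, in both cases from an age of 3 months. Whether each library stands for an animal of its own is not stated, so the spread behind the p-values may be technical. Depth was close to even, with an FPKM denominator of 20526024 to 24835934 fragments per library.

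Mitochondrial DNA is transcribed from both strands into long precursors, which are cut into mRNAs, rRNAs and tRNAs. The heavy-strand transcript (14 of the 16 measured genes) holds the rRNAs and nearly all mRNAs, and the light-strand transcript holds mt-Nd6 and mt-Tp among the measured genes. The proteins are core subunits of respiratory chain complexes I (mt-Nd genes), III (mt-Cytb) and IV (mt-Co genes) and of the ATP synthase (mt-Atp genes). They supply ATP to energy-demanding tissues such as the stria vascularis and hair cells of the cochlea. The mm10 annotation places the genes on chrM, each as a single exon. In genome order the heavy-strand genes run from mt-Rnr1 (ENSMUSG00000064337) at 70 to 1024 and mt-Rnr2 (ENSMUSG00000064339) at 1094 to 2675 through mt-Nd1 (ENSMUSG00000064341) at 2751 to 3707, mt-Nd2 (ENSMUSG00000064345) at 3914 to 4951, mt-Co1 (ENSMUSG00000064351) at 5328 to 6872 and mt-Co2 (ENSMUSG00000064354) at 7013 to 7696. They go on with mt-Atp8 (ENSMUSG00000064356) at 7766 to 7969, mt-Atp6 (ENSMUSG00000064357) at 7927 to 8607, mt-Co3 (ENSMUSG00000064358) at 8607 to 9390, mt-Nd3 (ENSMUSG00000064360) at 9459 to 9806, mt-Nd4l (ENSMUSG00000065947) at 9877 to 10173 and mt-Nd4 (ENSMUSG00000064363) at 10167 to 11544, and end with mt-Nd5 (ENSMUSG00000064367) at 11742 to 13565 and mt-Cytb (ENSMUSG00000064370) at 14145 to 15288. The light-strand genes are mt-Nd6 (ENSMUSG00000064368) at 13552 to 14070 and mt-Tp (ENSMUSG00000064372) at 15356 to 15422. All other subunits, and the enzymes that transcribe and process the mitochondrial RNA, come from nuclear genes.

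Nuclear chromosomes carry copies of mitochondrial DNA, and copies on chromosomes 1 and 2 bear on how these genes were counted. On chromosome 2 lie Gm13340, Gm13341 and Gm13339, copies of mt-Co1, mt-Co2 and mt-Nd2. Of their aligned bases 97.6%, 97.6% and 96.7% were identical. The mm10 annotation (GENCODE M21) places 7 unprocessed pseudogenes on the minus strand of chromosome 1 between positions 24611535 and 24616197, which copy a run of mitochondrial genes from mt-Co1 to mt-Nd4. Over 4149 aligned bases the chromosome 1 copies and the mitochondrial genes differed at 7 positions. The first bases of mt-Atp6 (chrM:7927-8076, plus strand, protein-coding exon) and of its copy Gm10925 (chr1:24614502-24614651, minus strand) are shown because the copy has no difference.
mt-Atp6: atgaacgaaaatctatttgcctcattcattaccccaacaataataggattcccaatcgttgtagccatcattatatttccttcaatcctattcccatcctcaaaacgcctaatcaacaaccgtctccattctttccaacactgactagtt
Gm10925: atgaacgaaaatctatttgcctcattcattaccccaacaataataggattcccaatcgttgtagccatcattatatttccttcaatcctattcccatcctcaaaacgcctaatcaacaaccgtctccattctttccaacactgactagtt
The mt-Nd3 gene (chrM:9459-9608) and Gm28438 (chr1:24612970-24613119) differ at 1 base, T3C, counted from 1 at the first base of mt-Nd3 and given in capitals.
mt-Nd3: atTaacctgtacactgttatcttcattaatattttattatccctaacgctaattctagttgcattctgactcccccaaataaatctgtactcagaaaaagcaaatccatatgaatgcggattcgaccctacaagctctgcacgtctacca
Gm28438: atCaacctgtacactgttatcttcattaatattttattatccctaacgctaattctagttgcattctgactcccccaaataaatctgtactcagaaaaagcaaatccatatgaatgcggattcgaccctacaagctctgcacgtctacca
The other 6 differences lie at the start of Gm29216, where its match to mt-Co1 begins at base 1054 of the gene (chrM:6381-6460 against chr1:24616118-24616197). They are T1056A, C1057T, A1059G, A1060G, C1062A and A1066T, counted from the first base of mt-Co1 and given in capitals.
mt-Co1: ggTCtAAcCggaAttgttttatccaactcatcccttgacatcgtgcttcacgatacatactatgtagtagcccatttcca
Gm29216: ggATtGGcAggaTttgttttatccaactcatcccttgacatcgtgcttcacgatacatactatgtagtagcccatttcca
The annotation has no gene at the place of mt-Atp8 in the chromosome 1 copy. That place is a stretch of 233 bases between Gm10925 and Gm28661, which could hold the 204 bases of mt-Atp8. No genome sequence was used here to look. The mt-Atp8 gene (chrM:7766-7969) is shown with the 43 bases it shares with mt-Atp6 in capitals.
mt-Atp8: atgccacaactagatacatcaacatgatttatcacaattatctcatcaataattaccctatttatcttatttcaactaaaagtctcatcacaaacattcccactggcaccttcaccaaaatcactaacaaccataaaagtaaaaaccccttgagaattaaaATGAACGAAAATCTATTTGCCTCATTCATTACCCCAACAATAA
The tRNA mt-Tp (chrM:15356-15422, minus strand) is shown as the 1 measured tRNA.
mt-Tp: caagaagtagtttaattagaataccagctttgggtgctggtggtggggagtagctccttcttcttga

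The most abundant member was mt-Co1, the catalytic subunit of complex IV, with FPKM (fragments counted on a gene, scaled to its length and to the library depth) of 13430, 12487, 13415 and 17362 in control, 10080, 14204, 16110 and 13039 in coffee and 10619, 12867, 14989 and 16190 in GTE. Control 4 had the highest value and coffee 1 the lowest, and the groups overlapped. Next came mt-Cytb, which codes for cytochrome b of complex III, with FPKM of 7168, 7368, 7446 and 10369 in control, 5105, 8001, 8772 and 7075 in coffee and 5672, 7563, 9217 and 9419 in GTE. The complex I subunit mt-Nd1 had FPKM of 5632, 6018, 5931 and 8399 in control, 4504, 6762, 7953 and 5968 in coffee and 4780, 6473, 7224 and 8412 in GTE, and mt-Nd2, another, 3103, 3342, 3382 and 5224 in control, 2504, 4224, 4707 and 3633 in coffee and 2155, 3634, 4690 and 4834 in GTE. In all of these control 4 was far above the other control libraries, and coffee 1 and GTE 1 were the lowest pair. The ratio of mt-Cytb to mt-Co1 stayed within 0.506 to 0.615 over the 12 libraries and that of mt-Nd1 to mt-Co1 within 0.419 to 0.520. The complex I subunits mt-Nd4 and mt-Nd5 ranged over 1540 to 3064 and 1413 to 2707 FPKM, and mt-Nd6 over 697 to 1403. The small rRNA mt-Rnr1 was listed at 443 to 1157 FPKM and the large rRNA mt-Rnr2 at 509 to 1240. The library kit named in the labels is one for mRNA, and how it retains rRNAs was not tested. The tRNA mt-Tp, with a gene of 67 bases, ranged over 207 to 1482 FPKM, or 324 to 2310 recovered fragments.

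The remaining 6 protein-coding genes sat far lower, as the plot of levels by gene shows. The complex IV subunit mt-Co2 had FPKM of 111, 104, 107 and 189 in control, 73.8, 116, 160.2 and 106 in coffee and 84.9, 114, 125 and 179.8 in GTE, and mt-Co3 64.0, 66.0, 56.5 and 116 in control, 39.7, 55.1, 91.8 and 48.0 in coffee and 49.1, 53.4, 104 and 140.0 in GTE. Both were lowest in coffee 1, and mt-Co2 was highest in control 4 and mt-Co3 in GTE 4. The range was 73.8 to 189 FPKM for mt-Co2, 39.7 to 140.0 for mt-Co3, and for the ATP synthase subunit mt-Atp6 28.7 to 136. The complex I subunits mt-Nd3 and mt-Nd4l ranged over 6.61 to 20.9 and 3.95 to 10.3 FPKM. The second ATP synthase subunit, mt-Atp8, was listed at 0 in 5 of 12 libraries and reached 1.19 FPKM, which is 6 fragments. In genome order, mt-Co2, with a mean of 122.6 FPKM, lies near mt-Co1, with a mean of 13733.

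**Figure D1:**
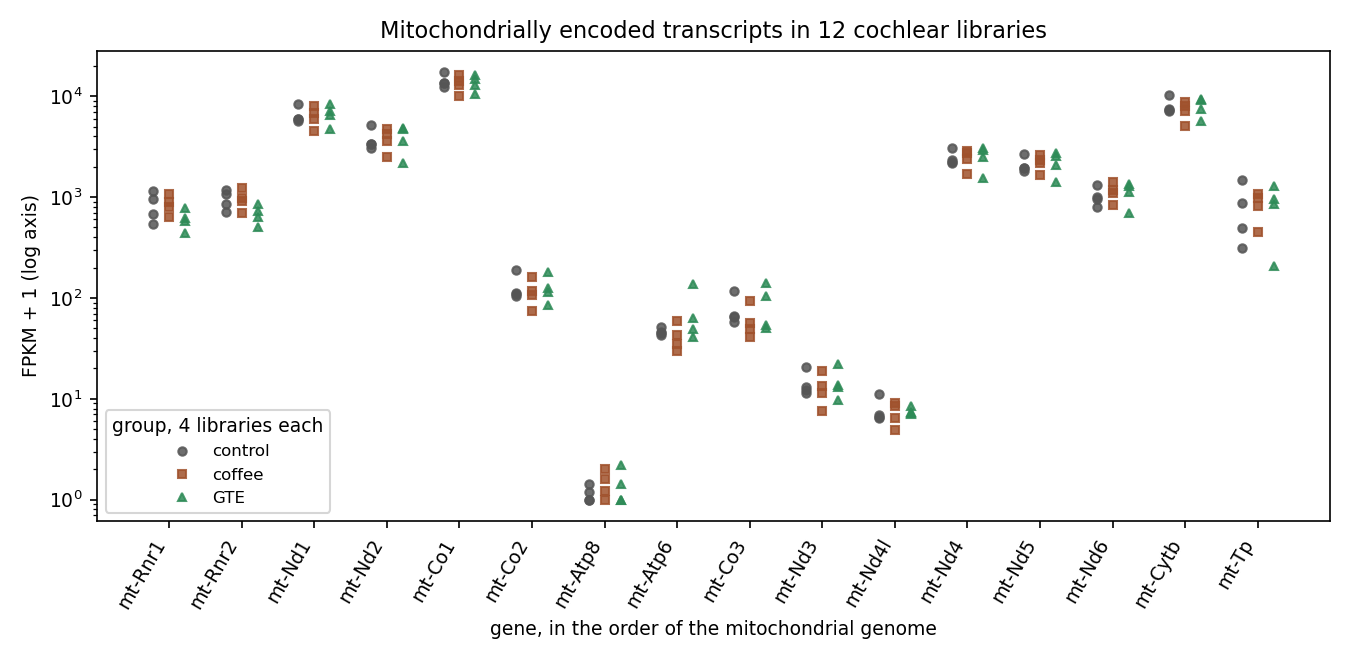
FPKM + 1 of the 16 mitochondrially encoded genes on a log axis, in genome order, with 1 point for each of 12 libraries (control circles, coffee squares, GTE triangles). Within a gene the 3 groups overlap, and the genes from mt-Co2 to mt-Nd4l lie far below mt-Co1 and mt-Nd4 on either side.

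These low values go with sequence that has a nuclear copy. Each gene was cut into all its windows of 100 bases, and windows found exactly in an annotated nuclear transcript were counted. Of mt-Co2 windows 99.5% were also in a nuclear transcript, of mt-Atp6 99.5%, of mt-Co3 99.9%, of mt-Nd3 97.6% and of mt-Nd4l 98.5%. The share was 60.8% in mt-Nd4, 30.8% in mt-Co1 and 3.2% in mt-Nd2, and 0% in mt-Rnr1, mt-Rnr2, mt-Nd1, mt-Nd5, mt-Nd6 and mt-Cytb. With windows of 50 bases it was 62.2% in mt-Nd4, 51.1% in mt-Co1, 8.2% in mt-Nd2, 7.6% in mt-Nd5 and 1.0% in mt-Rnr2. It stayed at 0% in mt-Rnr1, mt-Nd1, mt-Nd6 and mt-Cytb. Only mt-Atp8 joined a low level with a share of 0%, and its place in the chromosome 1 copy is the unannotated stretch named above. How fragments that fit both places were counted is not given in the sources used here, so the values of mt-Co2, mt-Co3, mt-Atp6, mt-Nd3, mt-Nd4l and mt-Atp8 are uncertain. The same holds for mt-Nd4 and mt-Co1, with 876 and 743 bases in shared windows, and to a lesser extent for mt-Nd2, with 129. For mt-Nd5 and mt-Rnr2 it holds only at windows of 50 bases, with 443 and 65 bases shared. Ratios to mt-Co1 and the mitochondrial share of a library carry that uncertainty too. The part of the copies in the levels was not tested.

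**Figure D2:**
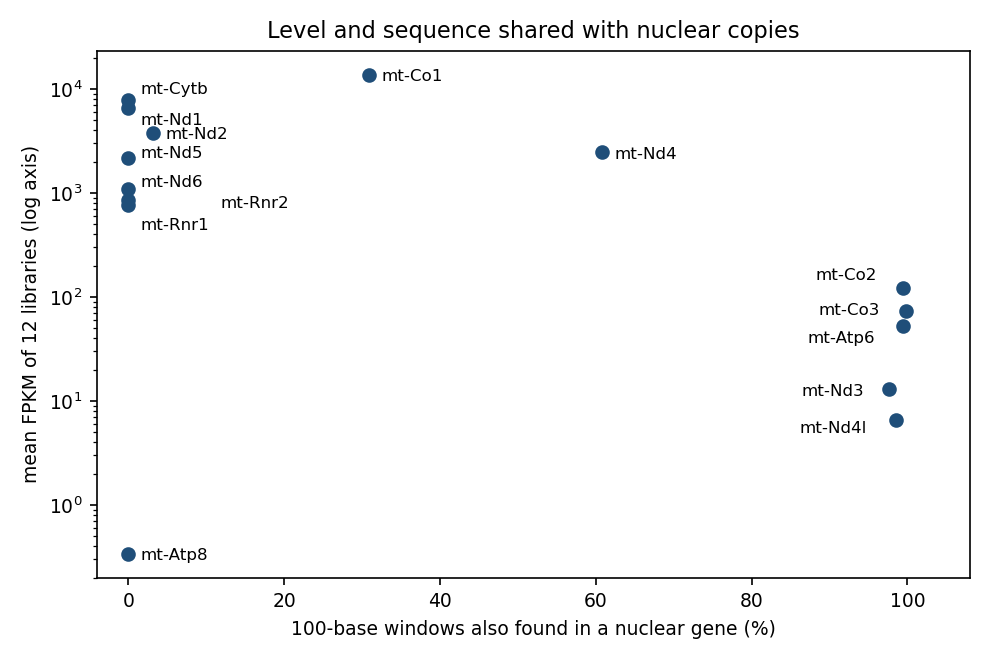
Mean FPKM over 12 libraries (log axis) against the percent of a gene's windows of 100 bases that also occur exactly in an annotated nuclear transcript, for 15 genes. The 5 genes above 97% have mean levels of 6.53 to 122.6 FPKM, and the 6 genes at 0% other than mt-Atp8 have means of 761 to 7765.

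The copies themselves had values. Gm10925 had FPKM of 113, 101, 123 and 169 in control, 88.4, 127, 174 and 117 in coffee and 83.4, 134, 153 and 172 in GTE, above mt-Atp6 in all libraries but GTE 1. Gm28661, the copy of mt-Co2, ranged over 53.2 to 113 FPKM, Gm28437, the copy of mt-Co3, over 35.8 to 82.0, and Gm28438, the copy of mt-Nd3, over 5.60 to 18.4. Of the fragments on a gene and its chromosome 1 copy together, the mitochondrial gene held 55.0% to 63.0% for mt-Co2, 48.0% to 67.6% for mt-Co3, 47.3% to 60.9% for mt-Nd3 and 39.3% to 56.3% for mt-Nd4l. For mt-Co1 and mt-Nd4, whose copies cover part of the gene, it held 99.91% to 99.93% and 99.2% to 99.7%. Gene and copy summed, per length of the gene, to 131 to 299 FPKM for mt-Co2 and 75.4 to 207 for mt-Co3. For mt-Nd3 and mt-Nd4l the sums were 13.1 to 37.8 and 8.18 to 19.0 FPKM. All of these sums were far below mt-Co1. Each of the copies Gm10925, Gm28661, Gm28437 and Gm28438 was at its lowest or second lowest in coffee 1 and in GTE 1, where mt-Co1 was also low.

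mt-Atp6 stood out in 1 library. Its FPKM was 44.8, 43.9, 41.4 and 51.0 in control, 28.7, 41.6, 58.5 and 33.7 in coffee and 136, 39.8, 47.8 and 62.7 in GTE. GTE 1 was the highest of all 12 libraries, and the next highest was 62.7. As a percentage of the fragments on mt-Atp6 and Gm10925 together, those on mt-Atp6 were 28.5, 30.3, 25.2 and 23.2 in control, 24.6, 24.7, 25.2 and 22.5 in coffee and 62.1, 23.0, 23.8 and 26.8 in GTE. In GTE 1 this share was 62.1%, against 22.5% to 30.3% in the other 11 libraries. The summed level of the pair, per length of mt-Atp6, was 219 FPKM in GTE 1, within the 117 to 234 FPKM of the other libraries.

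As a percentage of the summed FPKM of the library, the 16 genes took 10.6, 10.6, 10.8 and 14.6 in control, 8.23, 12.4, 13.3 and 10.6 in coffee and 7.83, 10.8, 13.4 and 14.1 in GTE. Control 4 was the highest and GTE 1 the lowest, followed by coffee 1, and the 3 groups overlapped. The mean percentages were 11.7 ± 1.98 in control, 11.1 ± 2.23 in coffee and 11.5 ± 2.84 in GTE (SD, n = 4). The difference was -0.54 percentage points for coffee against control, -0.15 for GTE against control and 0.39 for GTE against coffee, each within the SDs of the groups. Without control 4 or coffee 1 the first was 0.45 or 0.43, without control 4, GTE 1 or GTE 2 the second was 0.84, 1.08 or 0.09, and without coffee 1, GTE 3 or GTE 4 the third was -0.58, -0.23 or -0.47. Because FPKM is per length, this share is not the share of fragments, which was 3.39% to 6.13% of recovered fragments. Of the mitochondrial FPKM, the 5 genes mt-Co1, mt-Cytb, mt-Nd1, mt-Nd2 and mt-Nd4 took 84.0% to 87.4%.

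Markers of bone marrow cells were high in the libraries and differed between them. The summed FPKM of 12 myeloid marrow markers (neutrophil granule and precursor genes such as Mpo, Elane and S100a8) was 10708 to 17189 in control libraries, 17915 to 28624 with coffee and 12635 to 33604 with GTE. All 12 markers were detected in every library. In coffee 12 of 12 were higher than in control, and in GTE 11 of 12, beside 8209 and 8174 of 15854 over all genes. Coffee 1 and GTE 1, with the lowest mitochondrial shares, had the highest marker means on the log2(FPKM + 1) scale, 9.94 and 10.1, and control 4, with the highest share, had the lowest, 8.09. Not all libraries followed this order. Coffee 3 had a marker mean of 9.40 and a share of 13.3%, and control 2 a marker mean of 8.29 and a share of 10.6%. Without coffee 1, coffee 4 and GTE 1, the libraries with the highest marker means, the difference in share was 1.16 percentage points for coffee and 1.08 for GTE against control. This choice was made after the data were seen and left only coffee 2 and coffee 3 in the coffee group. Because coffee 1 and GTE 1 also had the lowest shares, leaving them out had to raise both differences, so the rise does not bear on marrow. The summed FPKM of 9 cochlear markers (Coch, Otos, Kcnq1, Kcne1, Slc26a5, Otof, Tecta, Otog and Gjb2) was 3057 to 3142 in control libraries, 1472 to 2848 with coffee and 1935 to 3020 with GTE, and all 9 were detected. That of 10 skeletal muscle markers, of which Tnnc2 was at 0 to 0.152 FPKM, was 110.3 to 869 in control libraries, 181 to 1753 with coffee and 178 to 257 with GTE, and that of 5 brown fat markers, with Ucp1 at 0.0745 to 423 FPKM, 185 to 703 in control libraries, 25.9 to 256 with coffee and 42.6 to 274 with GTE. In bulk tissue, fewer cells of a type and less RNA per cell cannot be told apart, and the part of marrow, muscle and fat in the mitochondrial values was not tested.

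**Figure D3:**
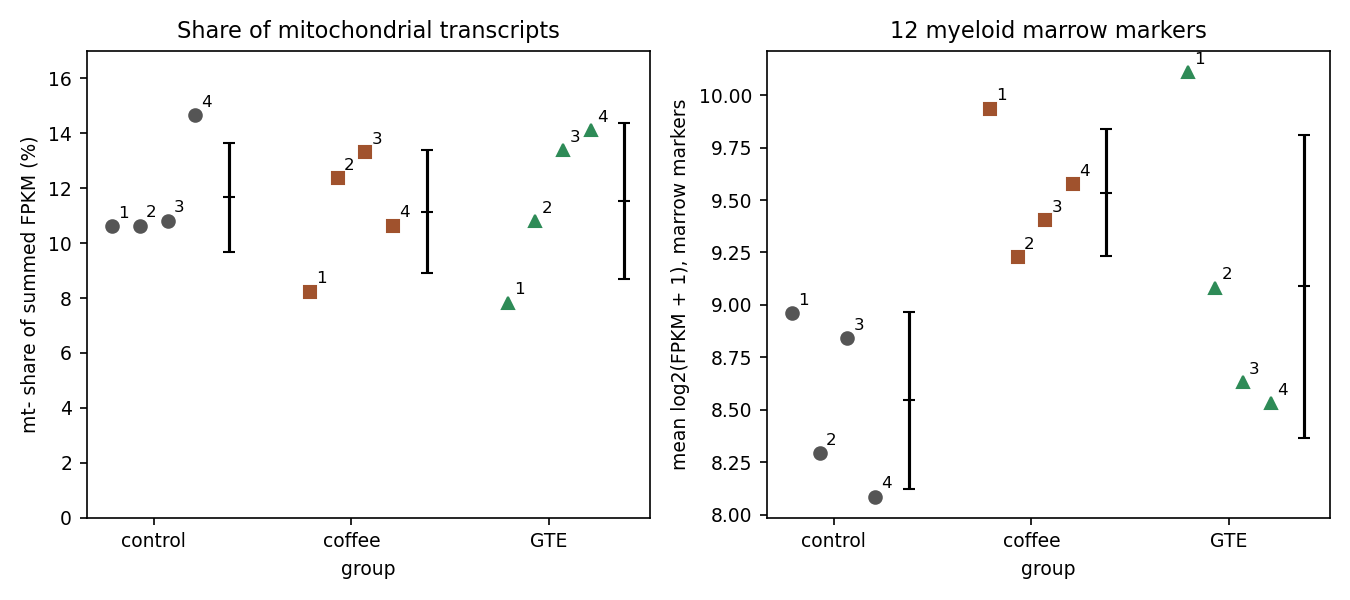
Left, percent of the summed FPKM of each library that came from the 16 mt- genes. Right, mean log2(FPKM + 1) of 12 myeloid marrow markers. Points are libraries, numbered by replicate, and bars are the mean and SD of 4. Coffee 1 and GTE 1 are lowest on the left and highest on the right, and control 4 is the reverse. Not all libraries follow this order, as coffee 3 and control 2 show.

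The comparisons ask whether either drink changed the level of a mitochondrial transcript. No member passed an adjusted p of 0.05 in any of the 3 comparisons (limma on log2(FPKM + 1), Benjamini-Hochberg over 15854 genes tested). Over all genes the percent passing was 0.00631% in coffee against control, 0.00631% in GTE against control and 0.00% in GTE against coffee. At an unadjusted p under 0.05, 0 of 15 tested members were lower and 0 higher in coffee against control, where 10.8% of all genes were lower and 9.25% higher. In GTE against control 1 was lower and 0 higher, beside 4.30% and 4.14% of all genes, and in GTE against coffee 1 was lower and 0 higher, beside 2.23% and 4.52%. The 1 member was mt-Rnr2 both times, and both comparisons share the GTE libraries. mt-Atp8 was too low to test. No member's groups were free of overlap, which 12.8%, 5.83% and 2.54% of all genes were in the 3 comparisons. The median log2 difference of the 15 members was -0.06, -0.00 and 0.04 in the 3 comparisons, beside 0.01, 0.01 and -0.00 over all genes.

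The 95% intervals were wide. For mt-Co1 the log2 difference was -0.09 ± 0.22 (SE) in coffee against control, with an interval of -0.58 to 0.39 (adjusted p = 0.818, limma). For mt-Cytb it was -0.17 ± 0.24, with an interval of -0.69 to 0.35. The largest in size for coffee was mt-Co3 at -0.38 ± 0.37, with an interval of -1.18 to 0.43. For mt-Atp6 the difference was 0.48 ± 0.33 in GTE against control and 0.68 ± 0.33 in GTE against coffee (adjusted p = 0.634 and 0.727, limma), and without GTE 1 it was 0.12 and 0.32. Intervals that hold 0 do not show that the levels were equal.

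The rRNAs, which form the mitochondrial ribosome, had the lowest log2 differences of the members in both GTE comparisons. mt-Rnr2 had FPKM of 863, 713, 1071 and 1177 in control, 692, 981, 1240 and 919.5 in coffee and 509, 629.5, 729 and 845 in GTE. GTE 1, 2 and 3 were below all but 1 coffee and 1 control library, and the groups overlapped. The log2 difference was -0.49 ± 0.22 against control (unadjusted p = 0.0453, adjusted p = 0.574) and -0.49 ± 0.22 against coffee (unadjusted p = 0.0455, adjusted p = 0.727), by limma. The mean FPKM of mt-Rnr2 was 956 ± 208 in control, 958 ± 225 in coffee and 678 ± 143 in GTE (SD, n = 4). mt-Rnr1 had FPKM of 679.6, 545, 954 and 1157 in control, 627, 884, 1070 and 799.6 in coffee and 443, 579.9, 619 and 775 in GTE, with differences of -0.43 ± 0.25 and -0.48 ± 0.25 (adjusted p = 0.599 and 0.741, limma). Both rRNAs kept a negative difference under each alternative tried in both GTE comparisons. Some alternatives, such as other filters, could not change the difference.

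The ratio of rRNA to mRNA levels does not depend on the total amount of mitochondrial RNA. Per 100 FPKM of the 13 mRNAs, the 2 rRNAs summed to FPKM of 4.44, 3.66, 5.70 and 4.79 in control, 4.97, 4.70, 5.16 and 4.83 in coffee and 3.51, 3.32, 3.11 and 3.51 in GTE. All 4 GTE libraries were below all control and coffee libraries, and the highest GTE value was 3.51 and the lowest of the others 3.66. The means were 4.65 ± 0.845 in control, 4.92 ± 0.199 in coffee and 3.36 ± 0.190 in GTE (SD, n = 4). The FPKM of mt-Rnr2 over that of mt-Nd1 was 0.118 to 0.181 in control libraries, 0.145 to 0.156 with coffee and 0.0973 to 0.107 with GTE. mt-Rnr1 over mt-Rnr2 was 0.765 to 0.983, with overlapping groups. These ratios were formed after the rRNA values were seen, so they have no test here. When every gene was scaled to the 13 mRNAs, a setting also added afterwards, the limma difference of mt-Rnr2 in GTE was -0.48 against control and -0.55 against coffee (unadjusted p = 0.00507 and 0.00183, adjusted p = 1.00 in both). Over all genes 0 of 15854 passed an adjusted p of 0.05 in either comparison. This scaling forms the same kind of ratio from values already seen, so its p-values are not a test of it. All 8 tested red cell precursor markers (such as Alas2, Klf1 and Hbb-bt) were higher in GTE than in control and in coffee. Over all genes 8174 and 7850 of 15854 were higher. At an unadjusted p under 0.05 by limma, 1 of 8 was higher in each comparison, beside 4.14% and 4.52% of all genes. The mean of the 8 markers on the log2(FPKM + 1) scale was 5.57, 5.27, 5.81 and 5.20 in control, 6.55, 5.36, 4.64 and 6.67 in coffee and 7.30, 6.24, 6.20 and 5.66 in GTE. Their summed FPKM was 1496 to 2432 in control libraries, 856 to 2607 with coffee and 1741 to 4340 with GTE. GTE 1 was the highest in this mean, the groups overlapped, and coffee 1 and coffee 4 lay above GTE 2 to GTE 4. None of the 8 was at 0 in any library. The myeloid marrow marker mean was 10.1 in GTE 1, the highest of all libraries, and 8.53 to 9.08 in GTE 2 to GTE 4. The part of red cell precursors, other marrow cells and RNA quality in the rRNA values was not tested.

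**Figure D4:**
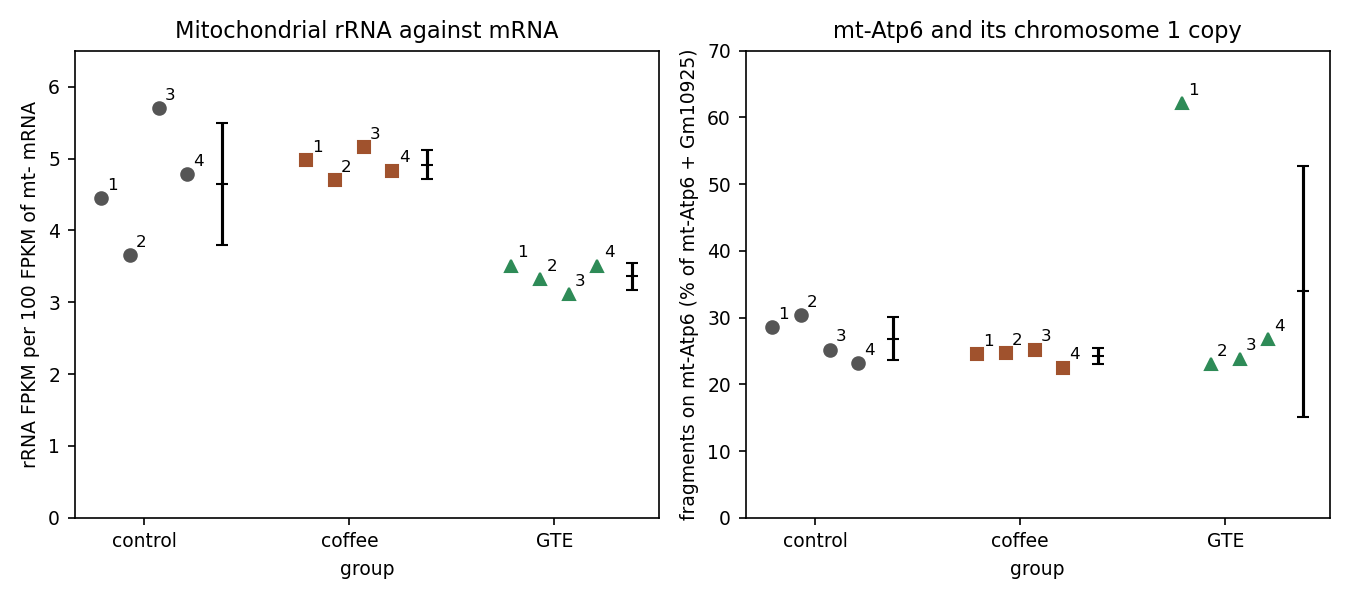
Left, FPKM of the 2 rRNAs per 100 FPKM of the 13 mitochondrial mRNAs. Right, percent of the fragments of mt-Atp6 and its copy Gm10925 that were on mt-Atp6. Points are libraries, numbered by replicate, and bars are the mean and SD of 4. GTE libraries are lowest on the left, and GTE 1 is highest on the right.

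Among the light-strand genes, mt-Nd6, a complex I subunit, followed mt-Nd5, with which it shares 14 bases on opposite strands. The ratio of their FPKM was 0.407 to 0.548 over the 12 libraries. The strand setting of counting is not given in the sources used here, so these shared bases could be counted for either gene. If strand was not used, fragments of the heavy-strand precursor over the whole of mt-Nd6 and mt-Tp could be counted for these genes too. The values of both are uncertain for that reason, and this was not tested. mt-Tp varied most among the members apart from mt-Atp8, with FPKM of 315, 875, 495 and 1482 in control, 446, 974, 1077 and 814 in coffee and 207, 849.6, 949.7 and 1288 in GTE. The highest was 7.14 times the lowest, GTE 1 and control 1 were low, and the groups overlapped. mt-Nd1 varied least relative to the mean of the 15 members, with an SD of 0.06 on the log2 scale, and mt-Atp6 and mt-Tp most, with SDs of 0.64 and 0.60.

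Nuclear genes for mitochondrial RNA were measured in the same libraries. No gene of the lists described next passed an adjusted p of 0.05 in any comparison. Among 11 genes of mitochondrial transcription, 7 were lower in coffee than in control, beside 7645 of 15854 over all genes. At an unadjusted p under 0.05, 2 of 11 were lower, Mrpl12 and Tfb2m, beside 10.8% of all genes. Tfb2m, which opens the mitochondrial promoter for the RNA polymerase, had a log2 difference of -0.21 ± 0.08 (SE, adjusted p = 0.220, limma) in coffee, with FPKM of 10.9, 10.4, 11.7 and 12.0 in control, 8.55, 10.2, 10.5 and 9.17 in coffee and 10.1, 11.4, 11.7 and 11.8 in GTE. Polrmt, the mitochondrial RNA polymerase, had FPKM of 5.11 to 6.71 and a difference of 0.09 ± 0.09 in coffee and 0.05 ± 0.09 in GTE. Tfam, which packs and activates mitochondrial DNA, had FPKM of 7.91 to 9.89 and differences of -0.05 ± 0.08 and 0.01 ± 0.08. Tefm, the elongation factor, and Mterf1a, which in mammals binds a site past the rRNA genes, had differences of 0.07 ± 0.11 and 0.12 ± 0.09 in GTE.

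Of 28 tested genes of mitochondrial RNA processing and decay, 18 were higher in GTE than in control, beside 8174 of 15854 over all genes. At an unadjusted p under 0.05, 4 of 28 were higher and 0 lower, beside 4.14% and 4.30% of all genes. Nsun3, which modifies a mitochondrial tRNA, had a difference of 0.26 ± 0.08 and Mtpap, which adds poly(A) tails to mitochondrial mRNAs, 0.18 ± 0.05 (adjusted p = 0.543 and 0.543, limma). In coffee the list had 2 higher and 1 lower at that level, beside 9.25% and 10.8% of all genes, with Tbrg4 at 0.35 ± 0.11 and Hsd17b10, a part of the tRNA-cutting RNase P, at -0.22 ± 0.08. Lrpprc, which stabilises mitochondrial mRNAs, had a difference of 0.11 ± 0.11 in coffee and 0.07 ± 0.11 in GTE. Its partner Slirp was listed at 0 to 0.0685 FPKM and was not tested. Of 20 genes that maintain mitochondrial DNA, 2 were lower and 1 higher in coffee at an unadjusted p under 0.05. Over all genes these shares were 10.8% and 9.25%. In GTE 1 was lower and 0 higher, beside 4.30% and 4.14% of all genes. Tk2, a nucleoside kinase, had -0.21 ± 0.06 in coffee, Twnk, the helicase, -0.15 ± 0.06, and Polg, the DNA polymerase, 0.12 ± 0.10. Dna2, a nuclease, had 0.87 ± 0.32 in coffee, with its highest FPKM in GTE 1, coffee 4 and coffee 1, the libraries highest in marrow markers. Of 77 mitochondrial ribosomal proteins, 49 were lower in coffee and 38 in GTE, beside 7645 and 7680 of 15854 over all genes. At an unadjusted p under 0.05, 7 were lower and 2 higher in coffee, where 10.8% of all genes were lower and 9.25% higher. In GTE 2 were lower and 2 higher, where 4.30% and 4.14% of all genes were. These shares of the ribosomal proteins did not exceed those over all genes.

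In coffee, 77 of 81 nuclear subunits of the respiratory chain were lower than in control, beside 7645 of 15854 over all genes. Their median log2 difference was -0.19, beside 0.01 over all genes. The 81 genes were measured in the same libraries, so their directions are not separate results. Of the 81, 9 were lower and 0 higher at an unadjusted p under 0.05, a share of lower genes close to the 10.8% over all genes. Among them were Ndufa13 of complex I (-0.39 ± 0.13) and Cox8a of complex IV (-0.33 ± 0.11), with adjusted p of 0.212 and 0.210 by limma. In GTE 75 of 81 were lower than in control, beside 7680 of 15854 over all genes, with a median of -0.10. At an unadjusted p under 0.05, 0 of 81 were lower, beside 4.30% of all genes. Between GTE and coffee, 73 of 81 were higher in GTE, beside 7850 of 15854 over all genes. Cox7a1, a complex IV subunit at -0.84 ± 0.42 in coffee, and Cox8b are also on the brown fat list. Ppargc1a, a coactivator of mitochondrial biogenesis, had FPKM of 6.57, 6.51, 7.99 and 9.57 in control, 4.97, 9.23, 7.97 and 6.58 in coffee and 4.33, 8.72, 9.45 and 10.6 in GTE, and was lowest in GTE 1 and coffee 1, where the mitochondrial share was lowest. Esrrb, a nuclear receptor expressed in the stria vascularis, had FPKM of 22.6, 25.4, 27.6 and 29.1 in control, 9.73, 15.2, 20.3 and 10.2 in coffee and 10.9, 21.2, 23.3 and 20.1 in GTE, and a difference of -0.92 ± 0.25 in coffee (adjusted p = 0.199, limma). All coffee libraries were below all control libraries for Esrrb, as they were for 1092 of 15854 genes tested. Coffee 1, coffee 4 and GTE 1, highest in marrow markers, had the lowest Esrrb values. Of 12 biogenesis regulators, 2 were lower in coffee at an unadjusted p under 0.05 and 0 in GTE, beside 10.8% and 4.30% of all genes. The cochlear markers were lower in coffee than in control in 8 of 9 cases, beside 7645 of 15854 over all genes. At an unadjusted p under 0.05, 6 of the 9 were lower, beside 10.8% of all genes. The part of tissue makeup in the nuclear differences was not tested.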

How the data were processed

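RNA was measured in 12 cochlear libraries, 4 in each of 3 groups taken from the sample titles. Per the labels' protocols, Trizol was used to extract RNA, and the TruSeq Stranded mRNA LT kit to build libraries. The deposited values are FPKM per Ensembl gene, made by the authors, and HTSeq, Cufflinks, HISAT2, Trimmomatic and build mm10 are named per the submitters' processing notes. What each tool did, its version, the gene annotation, the strand setting and the treatment of reads that fit several places were not given in the sources used.

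Members and lists were chosen with earlier results of these data known. Symbols came from GENCODE M21, found for 34459 of 34538 genes. FPKM steps gave whole fragments, within 0.01, for 31897 genes (92.4%) in all libraries, and for all 16 members. The FPKM denominators were 20526024 to 24835934 fragments. Counting error covers 3 fragments on 2000 bases, which is 0.0604 to 0.0731 FPKM.

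Groups were compared with limma 3.58.1 (R 4.3.3), using log2(FPKM + 1), which understates changes of low genes, over all 12 libraries, with a mean-variance trend. Genes with at least 1 FPKM in 4 or more libraries (15854) were tested, with Benjamini-Hochberg adjustment at 0.05. The script was tested on simulated data. Shares and ratios had no test. Nuclear copies were matched by exact windows of 50 and 100 bases against GENCODE M21 transcripts. A list of nuclear copies held 1 gene, Gm11808, that shared no window. Named nuclear genes were those with the smallest p of each list, up to 4 in each comparison with control, plus a short list of others such as Polrmt, and are given in part. Alternatives were other pseudocounts, filters, scalings, fits and left-out libraries. The voom fit on recovered fragments, the sum of member and copy, the fit without 3 libraries and the scaling to 13 mRNAs were added after the data were seen. Python 3.11.15, pandas 2.3.3 and matplotlib 3.10.9 were used. Sequences are from GENCODE M21. From the red cell precursor list, 1 marker is not reported here and was left out of its values.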

Additional observations from a re-analysis of the deposited data

Results flagged for a closer look

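In each group of 4 libraries, the highest or lowest library was compared with the others by Dixon's gap over range, with a critical value of 0.829. Of 75 groups checked, 10 passed, and chance passes about 1 in 20. Of these, 9 were control 4, and 8 of these 9 were single genes measured in the same libraries. Its values were 8399 FPKM for mt-Nd1, 5224 for mt-Nd2, 189 for mt-Co2, 116 for mt-Co3, 10.3 for mt-Nd4l, 3064 for mt-Nd4, 2665 for mt-Nd5 and 10369 for mt-Cytb. The other 3 control libraries lay at 5632 to 6018 FPKM for mt-Nd1, at 3103 to 3382 for mt-Nd2 and at 7168 to 7446 for mt-Cytb. The mitochondrial share of summed FPKM was 14.6% in control 4 and 10.6% to 10.8% in the others. Control 4 also had the lowest marrow marker mean, 8.09.

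The other result was GTE 1, where mt-Atp6 held 62.1% of the fragments of mt-Atp6 and Gm10925, against 23.0% to 26.8% in the other GTE libraries. The members were lowest in coffee 1 or GTE 1 in 15 of 16 cases, and mt-Atp8, at 0 in 5 libraries, was not counted as such.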

How the results depend on the processing

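No member passed an adjusted p of 0.05 in 26 settings of each comparison, with 1 exception. With the marrow marker mean as a covariate, 1 member, mt-Tp, passed in coffee against control (log2 difference 1.96, adjusted p = 0.0395). Over all genes 4 of 15854 passed in that fit. There 14 tested members were higher in coffee and 1 lower. Their median log2 difference was 0.49, beside -0.00 over all genes. The marrow marker mean is higher in every coffee library than in every control library, so marrow and coffee cannot be told apart. Direction was less stable. Of the log2 differences under alternatives, 50 of 390 changed sign in coffee against control, 62 of 390 in GTE against control and 39 of 390 in GTE against coffee, and none of these 151 passed the threshold in either setting. The cause of the changes was not tested. Other filters, the fit to 8 libraries, the fit without a trend and the replicate block could not change a difference. Nor could leaving out a library of the third group. These settings are among the 390 values, so the shares understate how often direction changed where it could. Adjusted p ran from 0.0395 to 1.00, 0.190 to 1.00 and 0.303 to 1.00. With quantile normalization, the changed log2 differences were, for coffee against control, mt-Cytb 0, mt-Nd4 0.031, and, for GTE against control, mt-Tp -0.015, mt-Cytb 0.12, mt-Nd4 0.18, mt-Nd1 -0.22, mt-Co2 0.0088, and, for GTE against coffee, mt-Nd1 -0.16, mt-Co1 0. With the marrow covariate, the changed log2 differences were, for coffee against control, mt-Cytb 0.35, mt-Nd3 0.51, mt-Nd4 0.58, mt-Nd4l 0.25, mt-Rnr2 0.39, mt-Nd2 0.76, mt-Nd1 0.47, mt-Co1 0.30, mt-Co3 0.49, mt-Co2 0.46, and, for GTE against control, mt-Cytb 0.25, mt-Nd3 0.39, mt-Nd4 0.33, mt-Nd4l 0.19, mt-Nd2 0.41, mt-Co1 0.16, mt-Co2 0.32, and, for GTE against coffee, mt-Cytb -0.097, mt-Nd3 -0.13, mt-Nd4 -0.25, mt-Nd4l -0.060, mt-Nd1 -0.14, mt-Co1 -0.14, mt-Co2 -0.14. With voom on recovered fragments, the changed log2 differences were, for coffee against control, mt-Rnr2 0.0016, and, for GTE against control, mt-Nd4l 0.00040. Without coffee 1, coffee 4 and GTE 1, the changed log2 differences were, for coffee against control, mt-Cytb 0.068, mt-Nd3 0.19, mt-Nd4 0.21, mt-Nd4l 0.22, mt-Rnr2 0.23, mt-Nd2 0.28, mt-Nd1 0.19, mt-Co1 0.11, mt-Co2 0.14, mt-Atp6 0.12, and, for GTE against control, mt-Cytb 0.12, mt-Nd3 0.18, mt-Nd4 0.21, mt-Nd4l 0.029, mt-Nd2 0.24, mt-Co1 0.056, mt-Co2 0.14, and, for GTE against coffee, mt-Nd3 -0.012, mt-Nd4l -0.19, mt-Nd1 -0.0012, mt-Co1 -0.050, mt-Atp6 -0.0030. Scaled to the 13 mRNAs, the changed log2 differences were, for coffee against control, mt-Nd4 0.046, mt-Rnr2 0.076, mt-Nd2 0.071, mt-Nd1 0.020, and, for GTE against control, mt-Nd3 0.011, mt-Nd4 0.011, mt-Nd4l 0.017, mt-Nd2 0.0041, and, for GTE against coffee, mt-Nd4 -0.034, mt-Co1 -0.026. With a pseudocount of 0.1, the changed log2 differences were, for GTE against control, mt-Nd4l 0.0029. With a pseudocount of 5, the changed log2 differences were, for GTE against control, mt-Nd3 0.0032. Leaving out each library in turn gave, in coffee against control, mt-Tp -0.14 to 0.61, mt-Rnr1 -0.13 to 0.23, mt-Nd5 -0.034 to 0.19, mt-Rnr2 -0.13 to 0.15, mt-Nd4 -0.12 to 0.13, mt-Nd4l -0.22 to 0.093. It also gave mt-Nd2 -0.12 to 0.18, mt-Nd1 -0.18 to 0.095, mt-Co1 -0.19 to 0.034, mt-Co2 -0.35 to 0.031, mt-Nd3 -0.41 to 0.032. Leaving out each library in turn gave, in GTE against control, mt-Tp -0.34 to 0.59, mt-Nd5 -0.085 to 0.23, mt-Nd1 -0.079 to 0.19, mt-Nd6 -0.0078 to 0.31, mt-Co3 -0.16 to 0.34, mt-Cytb -0.12 to 0.12. It also gave mt-Nd3 -0.22 to 0.18, mt-Nd4 -0.11 to 0.21, mt-Nd4l -0.080 to 0.19, mt-Nd2 -0.15 to 0.24, mt-Co1 -0.15 to 0.056, mt-Co2 -0.21 to 0.18. Leaving out each library in turn gave, in GTE against coffee, mt-Cytb -0.020 to 0.29, mt-Nd3 -0.034 to 0.40, mt-Nd4 -0.13 to 0.24, mt-Nd4l -0.072 to 0.22, mt-Nd1 -0.056 to 0.25, mt-Co1 -0.093 to 0.15. It also gave mt-Co2 -0.045 to 0.32, mt-Nd5 -0.15 to 0.17, mt-Nd2 -0.19 to 0.25, mt-Nd6 -0.18 to 0.16, mt-Tp -0.51 to 0.37. Replicate numbers were also used as a block. The correlations of same-numbered libraries ran from -0.38 to 0.55. For replicate 1 they were 0.14, 0.40 and 0.55, and each other number had values of both signs. Differently numbered libraries were not compared, so this cannot decide whether the numbers pair the libraries. With the replicate block 0 members passed, 0 genes passed in each comparison, and mt-Rnr2 had an unadjusted p of 0.0122 (adjusted p = 0.400 and 0.542) in both GTE comparisons. Over all genes the count past the threshold in coffee against control was 1 in the main setting and 0 to 98 in the others, with 98 without coffee 3 and 28 without GTE 1. The mitochondrial share difference for coffee against control ran from -1.27 to 1.16 points and changed sign. In each comparison it moved from its main value by less than the pooled SD of the full groups of 4 libraries, which control 4, coffee 1 and GTE 1 widen. Where 1 library was left out this was fixed in advance, because 1 of 4 libraries cannot move a group mean that far. It is no measure of stability there. Fragments of mt-Atp8, 0 to 6, set its limit.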
